A study of Mus musculus with 8 samples.

Results

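The genes of voltage-gated and potassium ion channels were examined in cultured mouse neural stem/precursor cells (NS/PCs) that had been transduced with Nfia. They were taken by symbol: the potassium channel genes (Kcn), the voltage-gated sodium channel genes (Scn), the voltage-gated calcium channel genes (Cacn) and the hyperpolarization-activated genes (Hcn), with pores and auxiliary subunits together. Kcnj10 and antisense transcripts were left out. This gave 134 of the 23997 gene symbols in the tables, of which 91 were potassium, 26 calcium, 13 sodium and 4 HCN channel genes. The gene of the sodium channel Nav1.2 is listed as Scn2a1, a spelling outside the symbol rule, and is therefore given apart.

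The 3 Nfia libraries came from NS/PCs transduced with Nfia, which encodes a transcription factor of the nuclear factor I family, and the 3 control libraries from control NS/PCs. All 6 were primary cultures from the telencephalon of ICR mouse embryos at E11.5 (the stage label reads E11), grown with basic fibroblast growth factor at 10 ng/mL, and poly(A) RNA was sequenced 3 days after transduction. The labels do not give the vector, its promoter, the share of cells transduced, what the control cells received, or whether the libraries stand for separate cultures; p-values then cover only library-to-library spread, possibly technical. A Flag ChIP sample and an IgG ChIP sample of the series are not analysed here.

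Most voltage-gated channels open when the membrane is depolarized, whereas HCN channels open when it is hyperpolarized. Sodium channels carry the upstroke of the action potential, calcium channels couple electrical activity to calcium entry, and potassium channels return the membrane towards rest or hold it there. Neural precursors are not excitable in the way neurons are: their membrane is dominated by potassium conductance, and sodium and calcium currents grow as neurons differentiate. Each pore-forming subunit works with auxiliary subunits that set its surface level and its gating.

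Levels are given in FPKM, fragments scaled by transcript length and library size, so that levels of different genes can be set side by side. A log2 difference is the Nfia mean less the control mean of log2(FPKM + 1), and it understates changes of low genes. Each adjusted p comes from limma, with the Benjamini-Hochberg adjustment made over the 12537 genes whose mean reached 1 FPKM (the filter), and "rose", "fell" and "called" refer to an adjusted p under 0.05. Library totals were 477396 to 511700 FPKM in Nfia cells and 474010 to 492423 FPKM in control cells, and depth relative to control 1 lay between 0.76 and 1.11, with the absolute depth unknown. Nfia itself was at 69.0, 85.6 and 103.5 FPKM in the Nfia libraries, against 19.8, 23.9 and 22.2 FPKM in the control libraries, so it followed the labels. The precursor genes Sox2, Nes, Vim and Fabp7 were abundant in all 6 libraries, and the 7 precursor markers summed to 5316 to 6398 FPKM in Nfia cells and 5390 to 5869 FPKM in control cells, sums made mostly of Fabp7 and Vim. The markers moved both ways: Nes, Hes1 and Vim rose (ratios 1.64, 1.47 and 1.29, adjusted p = 0.000469, 0.00265 and 0.0153), and Pax6 and Hes5 fell (ratios 0.618 and 0.665, adjusted p = 0.00101 and 0.0163).

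Kv4 channels carry the A-type potassium current, a fast, transient current that delays firing, together with calcium-binding partners. Among these genes, Kcnd3 and Kcnip3 rose while Kcnd2 and Kcnip2 fell. The 250 bases before an annotated start of each of these 4 genes are shown because the paralogs moved in opposite directions; they are RefSeq sequences of GRCm38.p6, 5′ to 3′ on the strand of the gene, and the capitals mark the nuclear factor I half-site TTGGC or its reverse complement GCCAA. The windows are chr3:105451640-105451889 on the plus strand, chr2:127522095-127522344 on the minus strand (the first of 3 listed starts), chr6:21215096-21215345 on the plus strand and chr19:45816064-45816313 on the minus strand. The last window lies within the annotated span of Kcnip2 (45792346 to 45816422), so the start used for Kcnip2 is internal to the gene.
Kcnd3: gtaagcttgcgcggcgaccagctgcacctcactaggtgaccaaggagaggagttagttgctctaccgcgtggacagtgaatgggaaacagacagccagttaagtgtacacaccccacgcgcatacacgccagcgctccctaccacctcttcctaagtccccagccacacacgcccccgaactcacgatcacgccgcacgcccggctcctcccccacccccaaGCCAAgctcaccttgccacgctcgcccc
Kcnip3: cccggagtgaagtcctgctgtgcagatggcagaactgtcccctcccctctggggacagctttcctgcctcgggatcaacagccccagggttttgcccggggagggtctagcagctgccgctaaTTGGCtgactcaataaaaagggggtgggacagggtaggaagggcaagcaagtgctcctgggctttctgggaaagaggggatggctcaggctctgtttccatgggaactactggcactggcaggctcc
Kcnd2: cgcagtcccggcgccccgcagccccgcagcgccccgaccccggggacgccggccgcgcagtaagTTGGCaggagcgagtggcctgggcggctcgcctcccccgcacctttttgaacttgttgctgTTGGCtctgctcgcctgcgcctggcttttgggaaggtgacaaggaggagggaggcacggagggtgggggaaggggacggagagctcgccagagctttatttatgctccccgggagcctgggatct
Kcnip2: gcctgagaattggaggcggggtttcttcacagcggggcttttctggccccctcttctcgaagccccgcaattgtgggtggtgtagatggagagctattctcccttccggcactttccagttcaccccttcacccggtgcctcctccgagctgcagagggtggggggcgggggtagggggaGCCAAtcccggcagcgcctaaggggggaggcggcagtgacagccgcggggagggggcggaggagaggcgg
Kcnd2 held 2 half-sites, 186 and 125 bases before its start, and the others held 1 each, at 28 bases in Kcnd3, 127 in Kcnip3 and 70 in Kcnip2. A half-site on either strand was present in 41.5% of the 32851 promoter windows of this length. Counted by gene, with a match in any of its windows, this was 50 of the 97 channel genes with a window (51.5%). The share of all genes with a window was 45.3%. Of the channel genes with a window, 2 of the 4 that rose and 7 of the 12 that fell held a half-site, against the same 45.3%. The full palindrome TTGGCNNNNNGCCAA was found in 0 of the 97 channel genes and in 0.0365% of all windows. A match describes these letters and does not show binding.

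**Figure D1:**
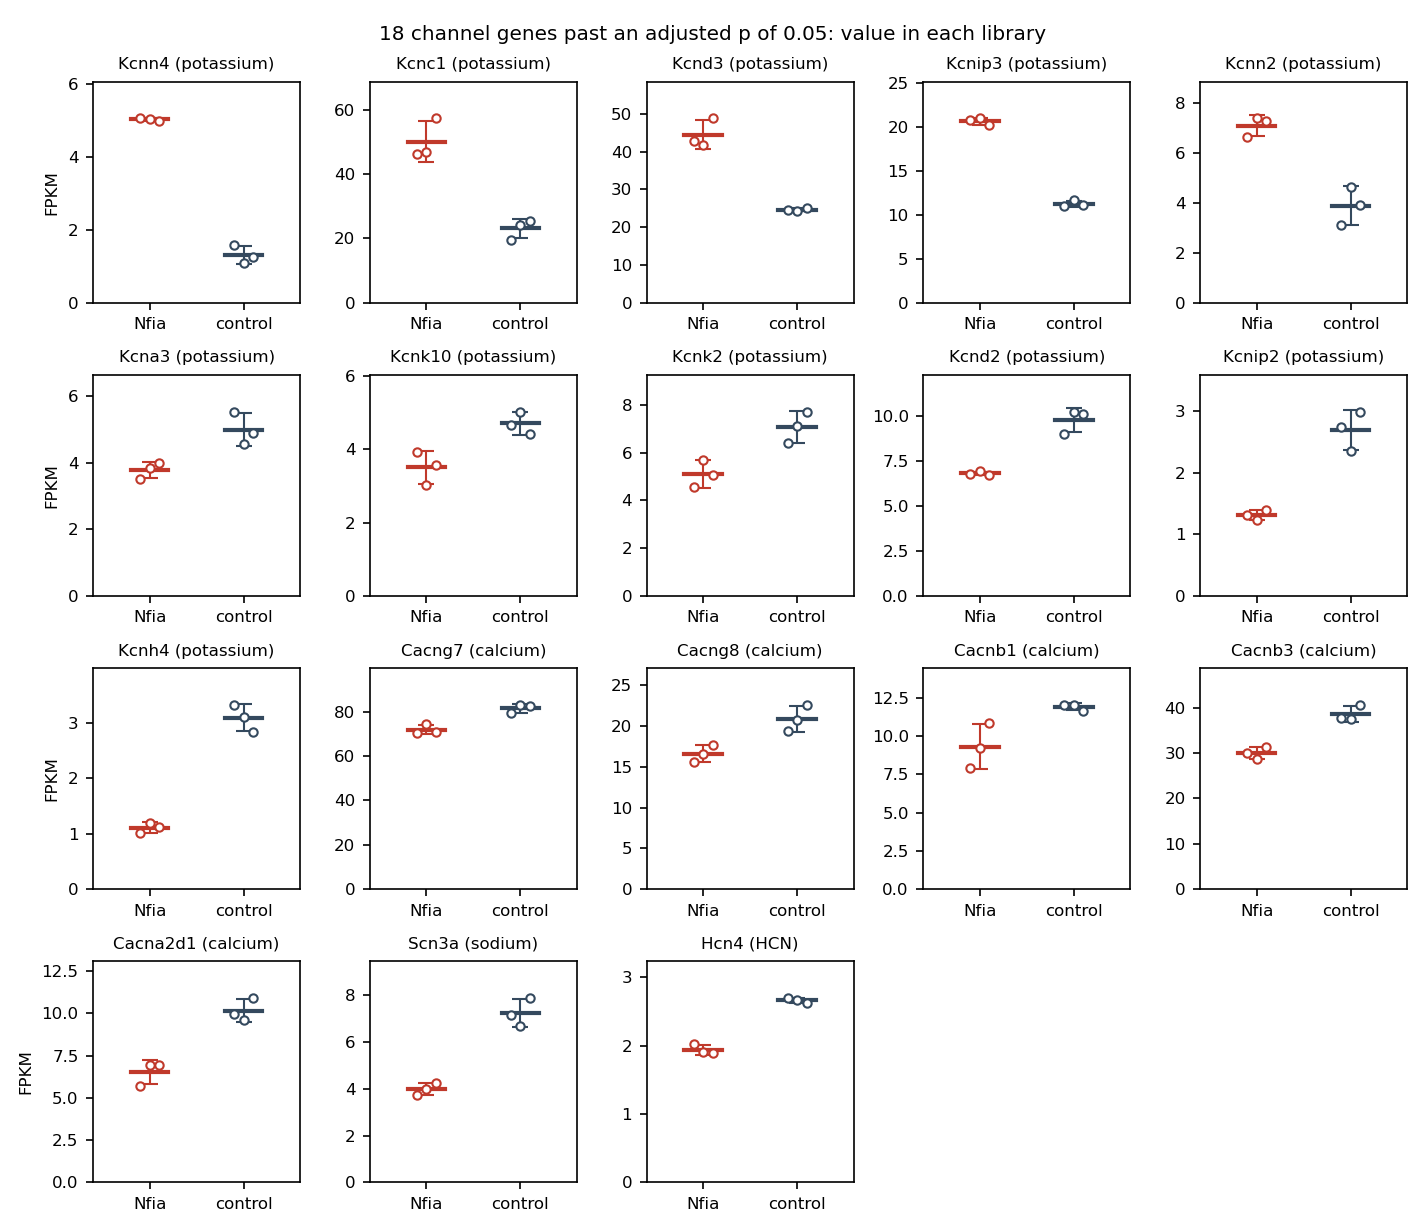
FPKM (vertical axes, from 0) of 18 channel genes past an adjusted p of 0.05 in each of the 3 Nfia and 3 control libraries; open points are libraries, horizontal lines are means and bars are SD (n = 3 per group). The groups do not overlap in any of the 18 panels: 5 potassium channel genes are higher with Nfia and the other 13 genes are lower.

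Kcnd3, the pore-forming subunit Kv4.3, was at 42.8, 41.9 and 48.8 FPKM in the Nfia libraries, against 24.6, 24.3 and 25.0 FPKM in the control libraries. The groups did not overlap, and the ratio of means was 1.81 (log2 difference 0.83, SE 0.06, adjusted p = 0.000413). Kcnd3 lies on chromosome 3 from 105451890 to 105674002, and the antisense gene Kcnd3os overlaps its 5′ end in the RefSeq annotation. Kcnd3os was at 2.19 ± 0.518 FPKM in Nfia cells and 0.949 ± 0.0593 FPKM in control cells (SD, n = 3 each; adjusted p = 0.00989). Its control mean was under 1 FPKM, so it passed the filter through the Nfia group only. The adjusted p is therefore given as a description and not as support for a rise. The kit was directional, per the labels, but whether strand was used in quantification is not given in the sources used here, so reads of the shared stretch may not be told apart, though the antisense level was far below that of Kcnd3.

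Kcnd2, the Kv4.2 subunit that forms the same kind of channel, was at 6.79, 6.92 and 6.74 FPKM in the Nfia libraries and at 9.03, 10.2 and 10.1 FPKM in the control libraries. Every Nfia library was below every control library (log2 difference -0.46, SE 0.06, adjusted p = 0.00234). Kcnd1 was under the filter. Kcnd3 therefore made up 85.9%, 85.2% and 87.2% of the summed FPKM of the 3 Kcnd genes in the Nfia libraries, against 72.8%, 69.2% and 70.2% in the control libraries.

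Kcnip3, which encodes the calcium-binding Kv4 partner KChIP3 (also known as DREAM, a calcium-regulated transcriptional repressor, and as calsenilin), was at 20.8, 21.0 and 20.2 FPKM with Nfia, against 11.1, 11.7 and 11.1 FPKM in control cells. It had the smallest adjusted p of the channel genes (log2 difference 0.82, SE 0.04, adjusted p = 0.000151). Kcnip2, the KChIP2 gene, was at 1.31, 1.24 and 1.4 FPKM with Nfia and at 2.74, 2.35 and 2.99 FPKM in control cells, so that all Nfia values lay below the control values (log2 difference -0.67, SE 0.10, adjusted p = 0.00411). Kcnip1, the KChIP1 gene, was at 6.57 ± 0.284 FPKM in Nfia cells and 7.06 ± 0.959 FPKM in control cells and did not pass the test (adjusted p = 0.515). Kcnip4 was under the filter. Kcnip3 held 71.4%, 71.3% and 69.3% of the summed FPKM of the 4 Kcnip genes in the Nfia libraries, against 52.7%, 55.0% and 47.9% in the control libraries. The other known Kv4 partners, the dipeptidyl-peptidase-like proteins Dpp6 and Dpp10, both fell. Dpp6 was at 8.04 ± 0.512 FPKM in Nfia cells and 10.2 ± 0.428 FPKM in control cells (adjusted p = 0.0106), and Dpp10 at 3.00 ± 0.393 and 4.74 ± 0.479 FPKM in Nfia and control cells (adjusted p = 0.0101).

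**Figure D2:**
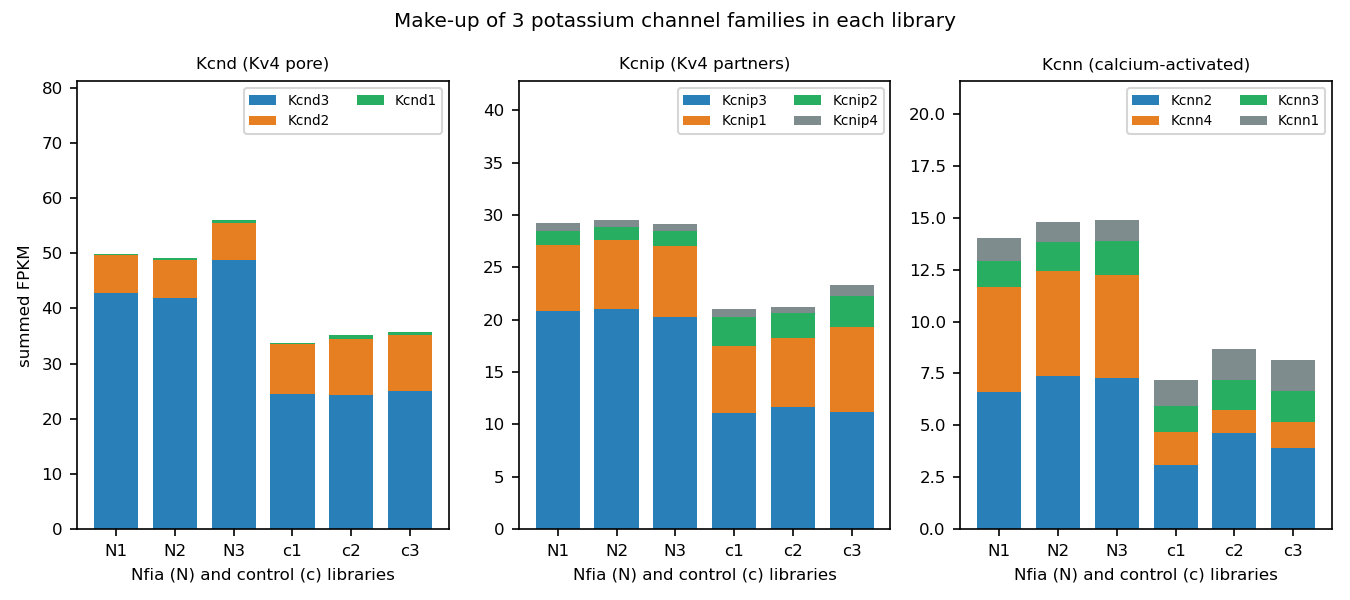
Stacked FPKM (vertical axes, from 0) of the members of 3 potassium channel families in the Nfia libraries (N1 to N3) and the control libraries (c1 to c3); each colour is 1 gene. In Nfia libraries Kcnd3 and Kcnip3 make up a larger share of their families, and Kcnn4 and Kcnn2 together account for the taller Kcnn bars.

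Kcnc1, the Kv3.1 subunit of the fast delayed rectifier that lets neurons fire at high rates, was at 46.1, 46.9 and 57.3 FPKM in the Nfia libraries, against 19.6, 24.3 and 25.4 FPKM in the control libraries. Nfia 3 was the highest, and the lowest Nfia value lay well above the highest control value. The ratio of means was 2.17 (log2 difference 1.09, SE 0.12, adjusted p = 0.00129). Kcnc1 lies on chromosome 7 from 46396219 to 46438706.

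The calcium-activated potassium channels, which open when calcium rises inside the cell, held the largest log2 difference of the 59 channel genes tested. Kcnn4, the intermediate-conductance channel KCa3.1, best known from blood cells and from proliferating cells outside the nervous system, was at 5.06, 5.04 and 4.99 FPKM in the Nfia libraries, against 1.59, 1.10 and 1.25 FPKM in the control libraries. The Nfia values lay close together and all above the control values, a ratio of means of 3.84 (log2 difference 1.39, SE 0.10, adjusted p = 0.000344). Kcnn4 lies on chromosome 7 from 24369826 to 24385212. Kcnn2, the small-conductance channel SK2, was at 6.62, 7.39 and 7.27 FPKM with Nfia and at 3.10, 4.65 and 3.89 FPKM in control cells (ratio 1.83, log2 difference 0.74, SE 0.12, adjusted p = 0.00518). Among the other small-conductance genes, Kcnn3 was at 1.42 ± 0.193 FPKM in Nfia cells and 1.39 ± 0.140 FPKM in control cells (adjusted p = 0.934). Kcnn1 was at 1.02 ± 0.0785 and 1.42 ± 0.123 FPKM in Nfia and control cells, and did not pass the test either (adjusted p = 0.105).

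The big-conductance calcium-activated channel was represented mainly by an auxiliary subunit. Kcnmb4, its beta4 subunit, was at 24.8, 24.6 and 19.8 FPKM in the Nfia libraries and at 21.4, 19.6 and 22.7 FPKM in the control libraries, with overlapping groups (adjusted p = 0.42). The pore gene Kcnma1 had a mean of 0.996 FPKM over the 6 libraries, just under the filter, far below its auxiliary subunit on the FPKM scale.

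The other potassium channel genes that passed the test fell. Kcnh4, a channel of the ether-a-go-go-like (ELK) group, was at 1.01, 1.20 and 1.11 FPKM in the Nfia libraries, against 3.33, 3.11 and 2.84 FPKM in the control libraries. This was the steepest decrease of the called potassium channel genes, a ratio of 0.358 (log2 difference -0.96, SE 0.09, adjusted p = 0.000875), and the gene lies on chromosome 11 from 100740378 to 100760115. Kcnh2, the ERG channel gene, was at 6.24 ± 0.511 FPKM in Nfia cells and 6.56 ± 0.285 FPKM in control cells and did not pass the test (adjusted p = 0.524). Kcnq3, a subunit of the M-current that damps repetitive firing, did not pass the test, at 1.15, 1.4 and 1.94 FPKM with Nfia and 0.995, 1.14 and 1.12 FPKM in control cells (adjusted p = 0.23).

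Background potassium channels hold the resting potential. Kcnk2 and Kcnk10, the mechanosensitive tandem-pore channels TREK-1 and TREK-2, both fell. Kcnk2 was at 5.11 ± 0.573 FPKM in Nfia cells and 7.08 ± 0.660 FPKM in control cells (adjusted p = 0.0183), and the test was no longer passed when control 2 or control 3 was left out (adjusted p = 0.0535 and 0.0617). Kcnk10 was at 3.51 ± 0.452 and 4.70 ± 0.307 FPKM in Nfia and control cells (adjusted p = 0.0325), a call that ended without any 1 of the libraries other than Nfia 1 (adjusted p = 0.059 to 0.0945). Kcna3, the Kv1.3 subunit, was at 3.78 ± 0.241 and 4.99 ± 0.495 FPKM in Nfia and control cells (adjusted p = 0.0269). It missed the threshold when Nfia 1, Nfia 2, control 1 or control 3 was left out (adjusted p = 0.0746, 0.0716, 0.0737 and 0.069). None of the 3 inward rectifier genes tested passed: Kcnj3 was at 1.46 ± 0.332 FPKM in Nfia cells and 2.23 ± 0.259 FPKM in control cells (adjusted p = 0.0566). Kcnj10, the glial inward rectifier left out of the channel set, was at 6.97, 7.62 and 7.86 FPKM with Nfia, against 2.38, 3.52 and 2.54 FPKM in control cells (log2 difference 1.16, adjusted p = 0.00101).

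Counted by ion, the potassium channel genes went both ways. Of the 91, 34 passed the filter, 5 rose (14.7% of those tested, against 16.1% of all genes tested) and 7 fell (20.6%, against 15.1% of all genes tested), shares close to the background. Without control 3, 4 fell. Of the 22 that did not pass, the most abundant were Kcnmb4, Kcnip1 and Kcnh2. The 57 under the filter were led by Kcnh8 and Kcnma1, with means of 0.999 and 0.996 FPKM over the 6 libraries, and 4 genes (Kcnk15, Kcnk16, Kcne3 and Kcnmb3) were listed at 0 in every library. The summed FPKM of the 91 genes was higher with Nfia, at 237, 243 and 260 in the Nfia libraries, against 192, 198 and 211 in the control libraries. The 5 genes that rose summed to 127 ± 9.67 FPKM in Nfia cells and 64.2 ± 3.72 FPKM in control cells. The other 86 summed to 119 ± 2.95 and 136 ± 7.12 FPKM in Nfia and control cells (SD, n = 3 each). This split follows from the calls and is a description only.

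**Figure D3:**
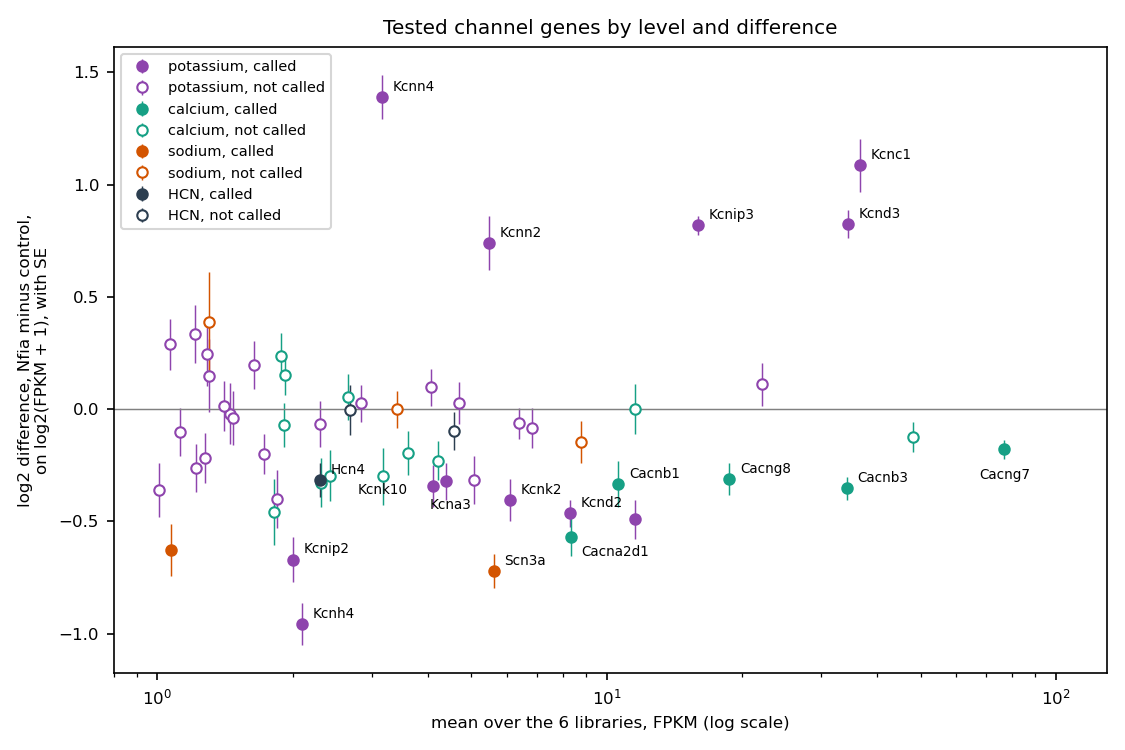
Log2 difference, Nfia minus control on log2(FPKM + 1), with its SE (vertical axis) against the mean FPKM over the 6 libraries (horizontal axis, log scale) of the 59 tested channel genes, coloured by ion; filled points passed an adjusted p of 0.05. The 5 filled points above 0 are all potassium channel genes, and the called calcium, sodium and HCN genes lie below 0.

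Genes of the voltage-gated calcium channels were lower where they changed, and the 5 that changed all encode auxiliary subunits. Of the 26, 17 passed the filter, 5 fell and 0 rose, and 9 were under the filter, led by the L-type and R-type pore genes Cacna1d and Cacna1e. With no filter on low values Cacng1 was called higher and Cacng6 lower. The share lower was 29.4% of those tested, against 15.1% of all genes tested. None of the 5 pore-forming alpha1 genes tested passed. The T-type pore gene Cacna1h was at 10.5, 10.8 and 13.6 FPKM with Nfia and at 10.4, 11.8 and 12.5 FPKM in control cells (adjusted p = 0.994), and the N-type gene Cacna1b at 3.8 ± 0.396 and 4.63 ± 0.368 FPKM in Nfia and control cells (adjusted p = 0.0897). The other 3, Cacna1a, Cacna1c and Cacna1g, had adjusted p-values of 0.225, 0.727 and 0.171. Whether auxiliary and pore genes differ in response was not tested.

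Cacna2d1, the alpha2-delta subunit that brings channels to the surface and binds gabapentin, was at 5.70, 6.91 and 6.96 FPKM in the Nfia libraries, against 9.93, 9.62 and 10.9 FPKM in the control libraries. It had the largest decrease of the called calcium channel genes (ratio 0.643, log2 difference -0.57, SE 0.09, adjusted p = 0.00393), and it spans chromosome 5 from 15934264 to 16374511. The related Cacna2d2 and Cacna2d3 had non-overlapping groups too, lower with Nfia, but did not pass the test (adjusted p = 0.0552 and 0.0618). Of the 17 calcium channel genes tested, the Nfia libraries lay all below the control libraries in 9 and all above in 2. Over all genes tested, these shares were 22.9% below and 24.7% above. Groups did not overlap in 64.7% of the 17, against 47.7% of all genes tested. The 2 calcium channel genes above were Cacnb2 and Cacna1a, and neither passed the test (adjusted p = 0.124 and 0.225). Cacnb3, a beta subunit that sets channel surface level, was at 30.1, 28.6 and 31.3 FPKM with Nfia and at 37.8, 37.4 and 40.6 FPKM in control cells (log2 difference -0.35, SE 0.05, adjusted p = 0.00365). Cacnb1, another beta subunit, was at 7.90, 9.23 and 10.8 FPKM with Nfia and at 12.1, 12 and 11.7 FPKM in control cells. Its call was marginal (adjusted p = 0.0449) and ended without any 1 library other than Nfia 3 (adjusted p = 0.0746 to 0.11).

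The gamma genes included Cacng7, which had the highest mean FPKM of the channel genes in both groups. Several of them, Cacng2, Cacng4, Cacng5, Cacng7 and Cacng8, encode proteins better known as regulators of AMPA glutamate receptors than as calcium channel subunits. Cacng7 was at 70.5, 74.3 and 70.9 FPKM in the Nfia libraries, against 79.2, 83.1 and 82.4 FPKM in the control libraries, with no overlap but a ratio of only 0.882 (log2 difference -0.18, SE 0.04, adjusted p = 0.0187). Cacng8 was at 15.6, 16.6 and 17.7 FPKM with Nfia and at 19.4, 20.7 and 22.6 FPKM in control cells (log2 difference -0.31, SE 0.07, adjusted p = 0.0173). The call of Cacng7 ended without Nfia 1, control 2 or control 3 (adjusted p = 0.0568, 0.057 and 0.064) and that of Cacng8 without Nfia 2 or control 3 (adjusted p = 0.0555 and 0.0511). The pair are neighbours on chromosome 7, Cacng7 from 3332027 to 3368221 and Cacng8 from 3394042 to 3416266. Cacng4 was at 46.1 ± 3.91 FPKM in Nfia cells and 50.2 ± 1.83 FPKM in control cells, with overlapping groups (adjusted p = 0.201). The 26 calcium channel genes summed to 207, 218 and 230 FPKM with Nfia and to 247, 253 and 266 FPKM in control cells. In place of 5 calcium channel genes, 2 were lower without control 3, and 3 without Nfia 1 or without Nfia 2.

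Sodium channel genes were low, and those called fell. Of the 13, 5 passed the filter, 2 fell (40%, against 15.1% of all genes tested) and 0 rose. Scn3a, the Nav1.3 subunit that prevails in the embryonic brain, was at 3.74, 3.98 and 4.25 FPKM in the Nfia libraries, against 7.17, 6.67 and 7.87 FPKM in the control libraries, with no overlap (ratio 0.552, log2 difference -0.72, SE 0.08, adjusted p = 0.00118). It lies on chromosome 2 from 65457118 to 65567591. Without any 1 control library, 1 sodium channel gene was lower. Scn8a, the Nav1.6 subunit of mature axons, was at 3.48, 3.11 and 3.62 FPKM with Nfia and at 3.38, 3.18 and 3.67 FPKM in control cells (adjusted p = 0.992). The beta subunit gene Scn3b, the most abundant sodium channel gene, was at 8.28 ± 0.940 and 9.26 ± 0.784 FPKM in Nfia and control cells (adjusted p = 0.271). Scn2a1, outside the symbol rule, was at 1.13, 1.44 and 1.58 FPKM with Nfia, all below the 2.03, 1.84 and 2.25 FPKM of the control libraries, and just missed the threshold (adjusted p = 0.0563). The 8 sodium channel genes under the filter were led by Scn1a and Scn2b.

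HCN channels carry the mixed sodium and potassium current that paces rhythmic cells. Of the 4 genes, 3 passed the filter, 1 fell (33.3%, against 15.1% of all genes tested) and 0 rose; with 3 genes tested, a single call says little about the group. Hcn4 was at 2.03, 1.91 and 1.89 FPKM in the Nfia libraries, against 2.70, 2.67 and 2.63 FPKM in the control libraries, which is a ratio of 0.73 (log2 difference -0.32, SE 0.08, adjusted p = 0.0215). Its call ended without Nfia 2, Nfia 3 or any control library (adjusted p = 0.0552 to 0.0712). Hcn3, at 4.39 ± 0.498 FPKM in Nfia cells and 4.76 ± 0.233 FPKM in control cells, and Hcn2, at 2.69 ± 0.412 and 2.69 ± 0.301 FPKM in Nfia and control cells, did not pass the test (adjusted p = 0.406 and 0.983).

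**Figure D4:**
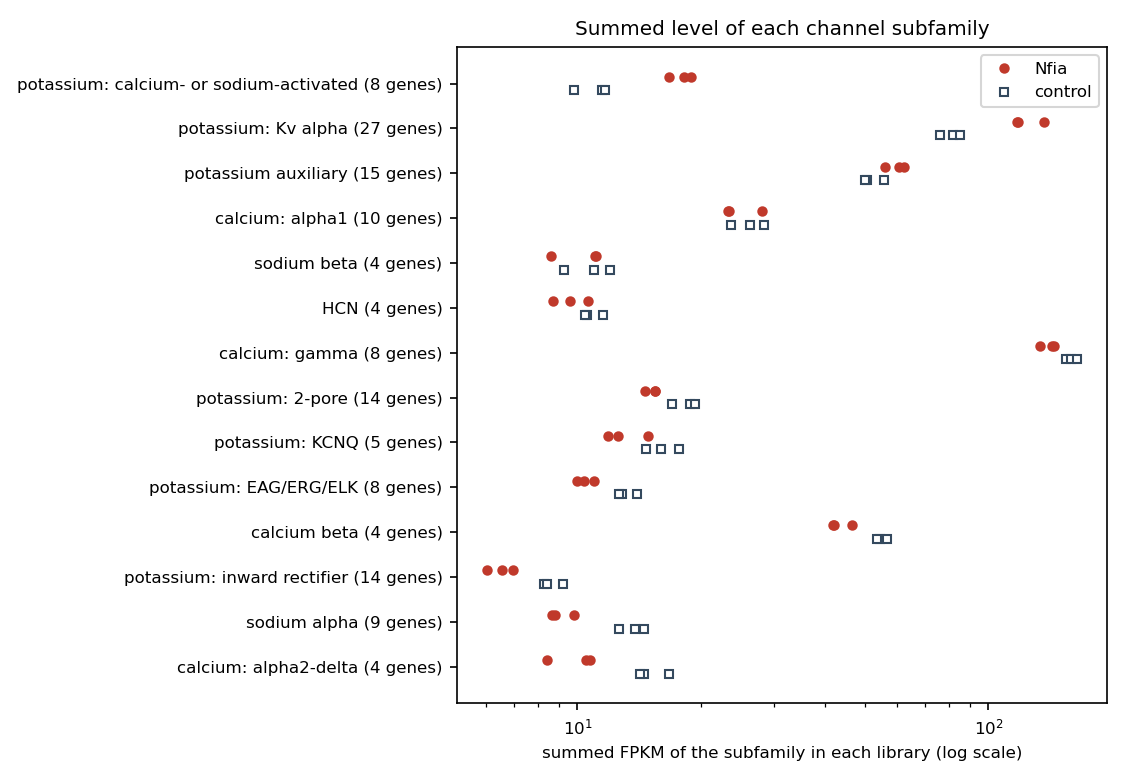
Summed FPKM (horizontal axis, log scale) of each channel subfamily in each Nfia library (filled circles) and control library (open squares), ordered by the ratio of group means. The Kv alpha, calcium- or sodium-activated and potassium auxiliary sums are higher in every Nfia library. These subfamilies hold the 5 genes that rose, and the other 86 potassium channel genes together summed lower in every Nfia library, a split that follows from the calls. From the calcium gamma to the alpha2-delta subfamily, 7 sums are lower in every Nfia library. The KCNQ sum lies within that stretch but overlaps between the groups.

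Over all ions, 59 of the 134 channel genes passed the filter, 4 of them through 1 group only, and 75 did not. Of the 59, 5 rose (8.47%, against 16.1% of all genes tested) and 15 fell (25.4%, against 15.1%). The Nfia libraries lay all above the control libraries in 11 genes and all below in 25, against 24.7% and 22.9% of all genes tested. The groups did not overlap in 61% of the tested channel genes and in 47.7% of all genes tested. The median log2 difference was -0.10 for the tested channel genes and 0.01 for all genes tested. Without control 3, 7 channel genes were lower, and 5 were higher when any 1 library was left out. The summed level of the 134 genes did not separate the groups, at 472, 489 and 521 FPKM in the Nfia libraries and 474, 483 and 516 FPKM in the control libraries, or 0.1% ± 0.00857 and 0.102% ± 0.00643 of the library total in Nfia and control cells. The make-up of that sum differed more than its size. In Nfia cells the genes of highest mean FPKM were Cacng7 (71.9), Kcnc1 (50.1), Cacng4 (46.1), Kcnd3 (44.5), Cacnb3 (30.0) and Kcnmb4 (23.0), and in control cells Cacng7 (81.6), Cacng4 (50.2), Cacnb3 (38.6), Kcnd3 (24.6), Kcnc1 (23.1) and Kcnmb4 (21.2). The library values of Kcnc1, Cacng4 and Kcnd3 overlapped in Nfia cells, as did those of Kcnd3 and Kcnc1 and of Kcnc1 and Kcnmb4 in control cells, so the order within these is not resolved. The sixth place is not resolved either, since Kcnmb4 overlapped Kcnip3 in Nfia cells and Cacng8 in control cells.

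Genes of a list of 34, most of them for proteins that anchor, modulate or regulate these channels, fell more often than they rose. The list also held the sodium leak channel gene Nalcn, which is outside the channel set, and its partners Unc79 and Unc80. Of 27 tested, 12 fell (44.4%, against 15.1% of all genes tested) and 2 rose (7.41%, against 16.1%), with a median log2 difference of -0.21. Stac2, 1 of the 12 that fell, passed the filter through the control group only (0.679 FPKM in Nfia cells and 1.53 FPKM in control cells). Cntnap2, the Caspr2 protein that clusters Kv1 channels along axons, fell to 8.49 ± 1.62 FPKM in Nfia cells, against 17.7 ± 0.377 FPKM in control cells (adjusted p = 0.00162), and the contactin gene Cntn1 to 5.64 ± 0.129 FPKM, against 8.33 ± 0.488 FPKM in control cells (adjusted p = 0.00176). Rem2, a small GTPase that inhibits calcium channels, fell to 3.37 ± 0.355 FPKM in Nfia cells, against 5.14 ± 0.0363 FPKM in control cells (adjusted p = 0.00472). Unc79, a partner of the sodium leak channel, fell as well (adjusted p = 0.00564), and so did the leak channel gene Nalcn (adjusted p = 0.0134). The 2 that rose were the ankyrin gene Ank2, at 79.7 ± 2.91 FPKM in Nfia cells and 63.0 ± 4.79 FPKM in control cells (adjusted p = 0.00874), and the spectrin gene Sptbn1 (adjusted p = 0.0285). Rest, the repressor of many neuronal channel genes, was at 6.18 ± 0.454 FPKM in Nfia cells and 5.33 ± 0.479 FPKM in control cells (adjusted p = 0.127).

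Of 17 ion pump and cotransporter genes tested, 4 rose and 4 fell (23.5% each, against 16.1% higher and 15.1% lower of all genes tested). Atp1b2, a beta subunit of the sodium-potassium pump known from astrocytes, was at 46.5 ± 3.69 FPKM in Nfia cells and 28.3 ± 3.17 FPKM in control cells (adjusted p = 0.00259). Atp1b1, another beta subunit, fell to 29.6 ± 1.59 FPKM in Nfia cells, against 36.6 ± 1.73 FPKM in control cells (adjusted p = 0.00874). Slc12a2, the chloride importer NKCC1, rose (adjusted p = 0.00552), and Slc12a5, the neuronal chloride exporter KCC2, was at 2.27 ± 0.202 FPKM in Nfia cells and 3.04 ± 0.495 FPKM in control cells (adjusted p = 0.0903). Rem2, Cntnap2, Cntn1 and Unc79 and the pump and cotransporter genes Atp1b2, Slc12a2 and Atp2b4 are among those with the smallest adjusted p in their lists, and the others were chosen after their values were seen. Atp2b4, a calcium pump of the plasma membrane, fell to 2.95 ± 0.248 FPKM in Nfia cells, against 4.35 ± 0.174 FPKM in control cells (adjusted p = 0.00638).

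**Figure D5:**
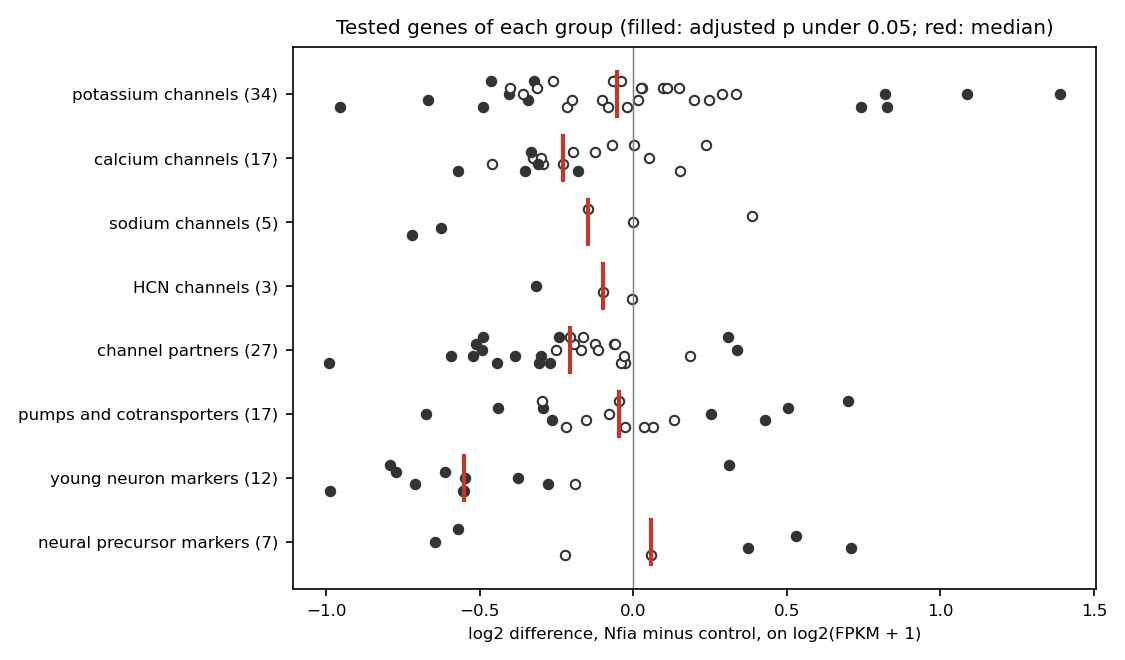
Log2 difference, Nfia minus control on log2(FPKM + 1) (horizontal axis), of each tested gene in the 4 ion classes, the 2 lists of related genes and the young neuron and precursor markers; filled points passed an adjusted p of 0.05, red lines are medians and the vertical offset within a row carries no meaning. The median is -0.55 for the young neuron markers, -0.23 for the calcium channels and -0.05 for the potassium channels.

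Young neuron markers moved in the same direction as most of the called channel genes. Of 12 markers, 10 fell (83.3%, against 15.1% of all genes tested) and 1 rose (8.33%, against 16.1%), and their summed level was 1094 to 1113 FPKM in Nfia cells and 1725 to 1805 FPKM in control cells, a ratio of 0.63. In bulk RNA fewer cells of a type and less RNA per cell cannot be told apart, and the part of these markers in the decreases of channel genes was not tested. The ratios of the called lower channel genes spanned 0.358 (Kcnh4) to 0.882 (Cacng7). Those of the single markers spanned 0.503 (Tubb3) to 0.854 (Rbfox3), apart from Nefl, which rose (1.28). Of 6 astrocyte markers 4 were tested, of which Slc1a3 rose and Aldh1l1 and Gfap fell. The 6 summed to 107 to 109 FPKM in Nfia cells and 83.8 to 90.1 FPKM in control cells, of which Slc1a3 made 85.3 ± 1.75 FPKM in Nfia cells and 56.5 ± 2.75 FPKM in control cells, with Aqp4 and S100b under the filter. Aldh1l1 was at 11.8 ± 0.912 FPKM in Nfia cells and 17.1 ± 0.887 FPKM in control cells (adjusted p = 0.00265), and Gfap at 1.37 ± 0.342 and 2.36 ± 0.267 FPKM in Nfia and control cells (adjusted p = 0.0308). Oligodendrocyte lineage markers summed to 14.2 to 16.6 and 21.1 to 24.1 FPKM in Nfia and control cells. Microglia and erythroid markers, in whose cells Kcnn4 is known, were all under the filter, with sums of at most 1.34 and 0.737 FPKM in any Nfia library and 2.19 and 1.35 FPKM in any control library. Endothelial markers summed to 1.19 to 1.80 and 2.11 to 2.91 FPKM in Nfia and control cells, and muscle markers, of which Myod1, Myog and Ckm did not exceed 0.324 FPKM in any library, to 6.18 to 6.43 and 5.94 to 7.31 FPKM in Nfia and control cells. Pericyte and mesenchyme markers overlapped between the groups, at 10.5 to 22.7 FPKM in Nfia cells and 15.5 to 23.2 FPKM in control cells.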

How the data were processed

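Column values of 6 libraries (3 Nfia, 3 control) were used as deposited by the authors: 1 FPKM value per gene symbol, a unit read from the values and the tools named, since the files have no header. Named in the submitters' processing notes, with no role or order, are mm10, MACS version 1.4, Cuffdiff, Cufflinks, SAMtools, Bowtie version 1 and TopHat. For annotation, filters and strand, the sources used here give nothing. FPKM values are not counts, so no count test was run. Relative depth came from the commonest ratio between libraries at genes with a mean under 0.3 FPKM.

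Genes whose mean reached 1 FPKM were compared as log2(FPKM + 1), using R version 4.3.3 and limma version 3.58.1 (variance trend, two-sided, 3 against 3), adjusted over all genes tested. An exact permutation test of 3 against 3 cannot go below 0.1. The fit was tested on simulated data. Fold values are ratios of mean FPKM. The channel genes, lists, tests and alternatives were chosen with earlier results of these data known. Named are all called channel genes, the most abundant uncalled ones per ion, and, per list, up to 4 called genes ranked by adjusted p; other genes set beside them were chosen after their values were seen. Some genes that this rule names are counted but not reported here. Positions and promoters are from RefSeq tables of GRCm38.p6, matched by symbol. Alternatives were another pseudocount, other filters, 3 scalings, no trend, the replicate number as a block, and leaving out each library.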

Additional observations from a re-analysis of the deposited data

How the results depend on the processing

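All 20 called channel genes kept their direction under every alternative that tested them. The calls of Kcnn4, Kcnc1, Kcnd3, Kcnip3, Kcnn2, Kcnh4, Kcnd2, Kcnip2, Scn3a, Cacna2d1 and Cacnb3 held in each such alternative. At a mean of at least 5 FPKM only 20 channel genes were tested, and 9 were lower, of which 3 were potassium, 1 sodium and 0 HCN. With no filter, Cacnb1, Kcnk10 and Kcna3 lost their calls and 1 calcium channel gene, Cacng1, was higher (log2 difference 0.30, limma adjusted p = 0.00781). In that setting Kcnq5 was also called higher, Cacng6, Kcnj11 and Kcnj8 were called lower, and 7 channel genes were higher and 15 lower in all. With no variance trend 11 potassium channel genes were lower and 7 were higher, and Cacnb1 lost its call. Leaving out 1 library gave 7 to 14 channel genes lower and 5 higher. By ion it gave 4 to 7 potassium, 2 to 5 calcium, 1 to 2 sodium and 0 to 1 HCN genes lower, and over all genes 1311 to 1724 higher and 1277 to 1620 lower. Fitted with the replicate number as a block, 14 channel genes were lower and 5 higher: the calls of Cacnb1, Kcnk10 and Kcna3 ended (adjusted p = 0.0564, 0.0582 and 0.0542), and Cacna2d2 and Kcnab2 were called lower. Deviations of same-numbered libraries correlated at 0.0264, -0.00578 and 0.0461, so the numbers were not taken to pair them. Scaling moved the median log2 difference of all genes by less than 0.1, to -0.02 with upper-quartile scaling, and no called channel gene lost its call under the 3 scalings. The absolute depth is unknown, so no counting error could be given for genes near 1 FPKM.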
